A study of Phaseolus vulgaris with 6 samples.

Results

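The genes described here are those of common bean (Phaseolus vulgaris) whose description in the deposited table names an arabinogalactan protein, an extensin or a proline-rich protein. Descriptions with the words fasciclin, late embryogenesis, kinase or lipid-transfer were left out. This gave 114 of 27012 genes. They comprised 18 arabinogalactan proteins, 25 Pollen Ole e 1 allergen and extensin family proteins, 2 genes named extensin 3, 61 hydroxyproline-rich glycoprotein family proteins and 8 proline-rich proteins. RNA sequencing was done on the top stems of the wild type A18 and of the mutant nts, with 3 samples of each. Both were sown directly in pots, grown at 25 °C with 14 h of light and 10 h of dark, and taken at first flowering, when the stem tips of nts looked different from those of A18. The labels name no gene or allele for nts and do not state if each sample was a different plant, and the p-values therefore cover only the spread among these 6 samples, which may be technical.

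Arabinogalactan proteins and extensins are hydroxyproline-rich glycoproteins of the plant cell surface. Prolines of the secreted protein are hydroxylated, and the hydroxyprolines then carry short arabinose chains in extensins and large, branched arabinogalactans in arabinogalactan proteins. Many arabinogalactan proteins are held at the outer face of the plasma membrane by a lipid anchor, and in stems they are found in expanding cells and in developing xylem. Extensins can be cross-linked into a network in the wall. Proteins with an Ole e 1 domain take their name from an olive pollen allergen, but the family is also expressed in vegetative tissue. The description hydroxyproline-rich glycoprotein family protein is broader, and here 32 of the 61 genes with it carry the GO term nucleus in the deposited table, against 1 with the term cell wall. Of the 25 Ole e 1 family genes 12 carry the term extracellular region, and of the 18 arabinogalactan proteins 3 carry the term for a membrane anchor.

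Total counts per library ran from 40728394 to 62695701. A18 replicate 2 and nts replicate 3 stood apart from the other libraries of their genotype: on the first principal component of all genes they lay at -36.1 and 40.3, against -112 and -116 for the other A18 libraries and 122 and 102 for the other nts libraries. Where leaving out A18 replicate 2 or both made a call for a named gene, a value without them is given beside it or for its class. The setting shown differs between genes and gave the call, so the other setting need not have called that gene. Both libraries were picked from these same data as those nearest the other genotype, so leaving them out favours calls. The p-values without them are therefore no separate support for a difference. Leaving out any other single library called 0 members. Genes of xylem and fibres were measured beside the members. The summed level of 56 such markers was 7832 to 10484 FPKM (a level scaled to transcript length and library size) in A18 and 544 to 2724 in nts, and of the 47 tested 43 had a log2 change below 0. In whole stem tips, fewer cells of a type and less RNA per cell cannot be told apart.

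Of the 114 genes 83 had enough counts to be tested, and the other 31 did not. In edgeR's quasi-likelihood test 0 of the 83 passed an adjusted p of 0.05 over all genes, a threshold that 20 of 21126 genes, or 0.0947%, passed. An unadjusted p under 0.05 was reached by 25 members (14 higher and 11 lower in nts), or 30.1%, against 18% of all tested genes. DESeq2 called 20 of the 83, 10 in each direction, against 11.3% of all genes (4.88% higher and 6.46% lower), and limma voom with sample quality weights called 40 against 24.1%. The design text set its own thresholds, a log2 value of 2 or more or of -2 or less with a p value up to 0.05. By these, 11 members differed, 3 higher and 8 lower, where the background was 5.43% of all genes (2.06% higher and 3.37% lower). The median log2 change (nts minus A18) of the 83 was 0.04, next to 0.00 over all tested genes, but the classes differed. It was 1.20 for the 15 tested arabinogalactan proteins, 1.002 for the 13 Ole e 1 family genes, -0.17 for the 47 hydroxyproline-rich glycoproteins and 0.17 for the 7 proline-rich genes. Without A18 replicate 2 and nts replicate 3 edgeR called 37 of the 83, 26 higher and 11 lower, against 19.9% of all genes. Leaving out A18 replicate 2 alone gave 20 members (4.38% of all genes), leaving out nts replicate 3 alone gave 7 (4.45%), and leaving out any other single library gave 0 (at most 0.00464%).

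**Figure D1:**
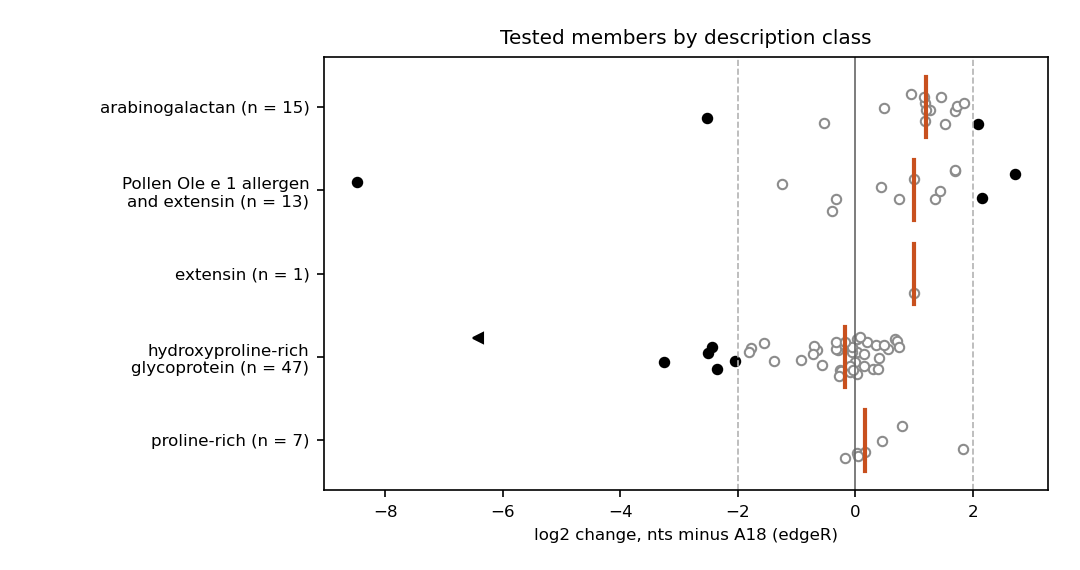
Log2 change (nts minus A18, edgeR) of the 83 tested genes by description class, with 1 point per gene, the class median as a bar and dashed lines at -2 and 2. Filled points passed the design text's thresholds, and the triangle is a gene with 0 counts in nts drawn at its upper bound. Of the 15 arabinogalactan proteins 13 lie above 0, and the filled points of the hydroxyproline-rich class all lie below -2.

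Arabinogalactan peptides have a very short protein backbone. In Arabidopsis they include arabinogalactan proteins 14, 15, 16 and 20, and genes with these descriptions mostly had higher means in nts. Of 10 such genes 8 were tested, 7 of these had a log2 change above 0, and in 5 every nts library lay above every A18 library. Over all tested genes 10% showed that separation. The arabinogalactan protein 20 gene Phvul.006G110400 (chromosome 6, 21934080 to 21934685) had 52.5, 54.9 and 60.3 FPKM in A18 replicates 1, 2 and 3. In nts replicates 1, 2 and 3 it had 225, 185 and 125 FPKM. All nts values were more than the highest A18 value, and A18 varied little. The means were 55.9 ± 3.96 and 178 ± 50.4 FPKM (SD, n = 3), 3.19-fold higher in nts (edgeR log2 change 1.74 ± 0.26 SE, adjusted p = 0.0575, and 1.96 with adjusted p = 0.00885 without A18 replicate 2 and nts replicate 3).

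An arabinogalactan protein 16 gene had the largest positive log2 change of the class. Phvul.002G162600 (chromosome 2, 31730889 to 31731238) had 56.3, 105 and 44.1 FPKM in the A18 libraries and 338, 336 and 184 in the nts libraries. The genotypes did not overlap, and the highest A18 library was replicate 2. The edgeR log2 change was 2.09 ± 0.45 (adjusted p = 0.0971), and 2.85 without A18 replicate 2 and nts replicate 3 (edgeR adjusted p = 0.00434). Of the other arabinogalactan protein 20 genes, Phvul.004G173101 had 14.8, 29.2 and 10.7 FPKM in A18 and 54.8, 49.2 and 69.9 in nts. Its groups were apart as well (edgeR log2 change 1.71 ± 0.48, adjusted p = 0.149, and 2.36 with adjusted p = 0.0324 without A18 replicate 2). The third, Phvul.002G296000, differed least, with 67.3 ± 14.7 FPKM in A18 and 88.5 ± 8.49 in nts (SD, n = 3; edgeR log2 change 0.49 ± 0.21, adjusted p = 0.286, and 0.29 with adjusted p = 0.346 without both outlying libraries).

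The most abundant gene of all 114 was an arabinogalactan protein 15 gene, Phvul.009G075801 (chromosome 9, 12887705 to 12887893). It had 498, 1414 and 389 FPKM in A18 and 2196, 1291 and 2747 in nts. A18 replicate 2 lay above nts replicate 2, so the groups overlapped (edgeR log2 change 1.47 ± 0.62, adjusted p = 0.286). Without A18 replicate 2 the change was 2.41 (edgeR adjusted p = 0.0453). An arabinogalactan protein 14 gene, Phvul.001G111400 (chromosome 1, 32576838 to 32577011), had 305, 533 and 243 FPKM in A18 and 1058, 679 and 1289 in nts, without overlap (edgeR log2 change 1.54 ± 0.44, adjusted p = 0.150, and 2.06 with adjusted p = 0.0452 without A18 replicate 2). The other arabinogalactan protein 14 gene divided the A18 libraries. Phvul.004G080600 had 12.9 and 21.6 FPKM in A18 replicates 1 and 3 but 548 in replicate 2, within the range of the 542, 234 and 569 FPKM of nts. Its edgeR log2 change was 1.17 ± 1.39 (adjusted p = 0.708) over all libraries and 4.87 without A18 replicate 2 (edgeR adjusted p = 0.0270). These 3 gene models span 168 to 189 bp, and FPKM values of models so short depend on how length was corrected, which is not given in the sources used here.

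Among the longer arabinogalactan proteins, all 3 genes described as arabinogalactan protein 18, a lysine-rich type in Arabidopsis, had higher means in nts, and A18 replicate 2 lay within the nts range in each. Phvul.002G052800 (chromosome 2, 4814522 to 4815680) had 506, 1599 and 352 FPKM in A18 and 1863, 1353 and 2297 in nts. For Phvul.003G238200 the values were 321, 922 and 212 FPKM in A18 and 1316, 811 and 1163 in nts. Phvul.002G014100 had 169, 479 and 151 FPKM in A18 and 399, 505 and 613 in nts. The range of the A18 libraries was wider than the difference of the means in each, and edgeR gave log2 changes of 0.95 to 1.20 with adjusted p from 0.378 to 0.420. Without A18 replicate 2 the changes were 1.83 to 2.28, with edgeR adjusted p from 0.0376 to 0.0423. The arabinogalactan protein 1 gene Phvul.002G211000, a classical type in Arabidopsis, had 138, 177 and 86.5 FPKM in A18 and 372, 296 and 263 in nts, with no overlap (edgeR log2 change 1.27 ± 0.34, adjusted p = 0.139, and 1.64 with adjusted p = 0.0469 without A18 replicate 2).

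The genes described as arabinogalactan protein 26 went both ways. Phvul.001G202300 (chromosome 1, 46121196 to 46121714) had 18.8, 17.6 and 29.0 FPKM in A18 and 2.00, 4.48 and 4.22 in nts. It was the only arabinogalactan protein with every nts library below every A18 library, and its mean was 6.11-fold lower in nts (edgeR log2 change -2.52 ± 0.41, adjusted p = 0.0663). Phvul.007G166400 had 27.6, 42.7 and 20.6 FPKM in A18 and 127, 115 and 76.0 in nts, the opposite order (edgeR log2 change 1.85 ± 0.38, adjusted p = 0.0888, and 2.31 with adjusted p = 0.0299 without A18 replicate 2). The third, Phvul.006G160600, had 12.9, 14.9 and 10.5 FPKM in A18 and 20.3, 21.2 and 42.3 in nts (edgeR log2 change 1.20 ± 0.39, adjusted p = 0.188). It too was higher in every nts library.

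Over the class, 13 of the 15 tested arabinogalactan proteins had a log2 change above 0, beside 50.2% of all genes, and 8 had every nts library above every A18 library while 1 had the reverse. A18 replicate 2 was the highest A18 library in 12 of the 15 and lay inside the nts range in 5, whereas A18 replicates 1 and 3 lay inside it in 0. Over all genes the A18 libraries lay inside the nts range in 36.5%, 41.6% and 37.1%, so the 33.3% of A18 replicate 2 is below its share over all genes. Summed over the 18 genes, the level was 2211, 6011 and 1708 FPKM in A18 and 8617, 5963 and 9538 in nts, so A18 replicate 2 reached the lowest nts library. A18 replicate 2 was picked from these data, and leaving out the highest A18 library in 12 of the 15 genes raises their change. Without A18 replicate 2 edgeR called 11 of the 15 higher and 1 lower, where 2.66% of all genes were called higher and 1.72% lower. Without both outlying libraries the counts were also 11 and 1, against 9.67% and 10.3%. The lower gene was Phvul.001G202300 in both (edgeR adjusted p = 0.0479 and 0.0255). The second gene with a negative log2 change over all libraries, the arabinogalactan protein 16 gene Phvul.004G162500, had 1.29, 24.2 and 1.86 FPKM in A18 and 9.88, 7.07 and 2.31 in nts. Its change was -0.54 with A18 replicate 2 and 2.14 without it (edgeR adjusted p = 0.857 and 0.204).

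**Figure D2:**
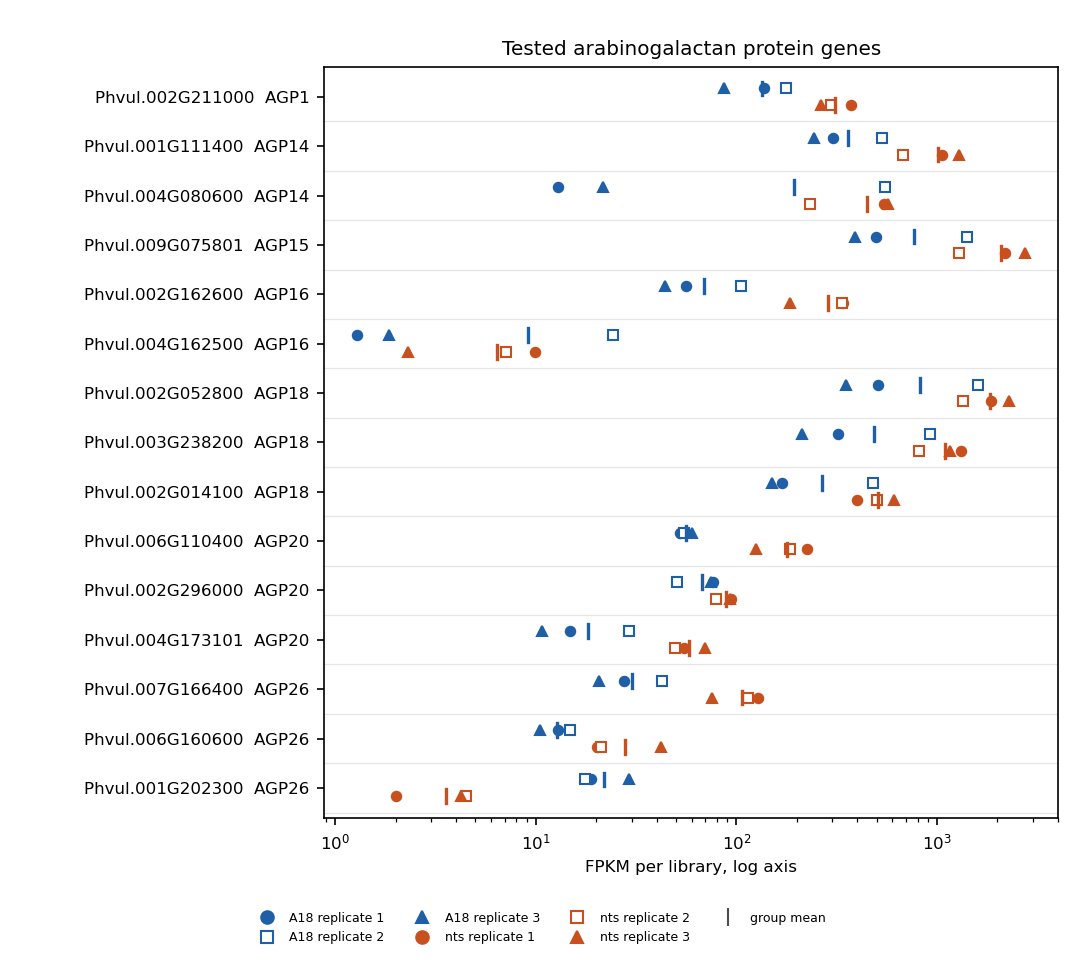
FPKM per library, on a log axis, of the 15 tested arabinogalactan protein genes, with A18 in blue, nts in orange, a symbol for each replicate and a bar at each mean. The A18 libraries lie below nts for most genes, with A18 replicate 2 (open squares) nearest to or within the nts values, and the last gene, Phvul.001G202300, is lower in every nts library.

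The Ole e 1 family held the largest difference in level among the members detected in both genotypes. Phvul.003G086700 (chromosome 3, 16278771 to 16280043) had 122, 37.1 and 117 FPKM in A18 and 0.134, 0 and 0.593 in nts, where the count was 0 in replicate 2. It was abundant in every A18 library and nearly undetected in every nts library, with the A18 minimum in replicate 2. The mean was 381-fold lower in nts (92.2 ± 47.8 against 0.242 ± 0.311 FPKM, SD, n = 3; edgeR log2 change -8.48 ± 1.18, adjusted p = 0.0564). Leaving out A18 replicate 2 gave -8.82 (edgeR adjusted p = 0.0283), and leaving out nts replicate 3 as well gave -10.57 (edgeR adjusted p = 0.00431). The summed xylem and fibre markers were lower in the nts libraries as well. Among them are 3 cellulose synthase A4 genes, named for an enzyme that makes cellulose of secondary walls. The most abundant, Phvul.009G242700, had 491, 409.99 and 644 FPKM in A18 and 10.1, 6.04 and 143 in nts. Phvul.007G190300 had 25.8, 1.51 and 27.7 FPKM in A18 and 0.0715, 0.137 and 0 in nts, so only the latter was low in A18 replicate 2. Phvul.002G188600 was at 0.110 to 2.78 FPKM in A18 and 0.472 to 2.22 in nts. The part of xylem and fibre cells in the difference of Phvul.003G086700 was not tested.

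Other family members stood higher in nts. Phvul.009G028900 (chromosome 9, 6688652 to 6689877), the third most abundant of all 114 genes, had 585, 1155 and 398 FPKM in A18 and 2172, 1881 and 1635 in nts. The groups were apart, and A18 replicate 2 was nearest to nts (edgeR log2 change 1.44 ± 0.48, adjusted p = 0.192, and 2.12 with adjusted p = 0.0337 without it). Phvul.001G089800 had 17.3, 10.9 and 15.8 FPKM in A18 and 41.0, 53.7 and 39.4 in nts. Here A18 replicate 2 was the lowest library and both genotypes varied little, with a mean 3.05-fold higher in nts (edgeR log2 change 1.70 ± 0.23, adjusted p = 0.0564, and 1.604 with adjusted p = 0.0324 without that library). Phvul.011G095400 had 128, 235 and 182 FPKM in A18 and 419.9, 418 and 219 in nts, and nts replicate 3 fell inside the A18 range (edgeR log2 change 1.002 ± 0.37, adjusted p = 0.233, and 1.53 with adjusted p = 0.0174 without A18 replicate 2 and nts replicate 3). With only A18 replicate 2 left out the change was 1.35 (edgeR adjusted p = 0.112).

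The 2 members of this family past the design text's thresholds on the higher side were of low abundance. Phvul.008G026300 had 0.203, 2.55 and 0.659 FPKM in A18 and 10.6, 10.4 and 1.78 in nts, with overlap of A18 replicate 2 and nts replicate 3 (edgeR log2 change 2.72 ± 1.10, adjusted p = 0.266). The change was 4.27 without A18 replicate 2 (edgeR adjusted p = 0.0924) and 4.69 without both (edgeR adjusted p = 0.0140). Phvul.008G001600 had 1.23, 1.004 and 0.714 FPKM in A18 and 4.97, 5.04 and 2.62 in nts, without overlap (edgeR log2 change 2.16 ± 0.45, adjusted p = 0.0925, and 2.45 with adjusted p = 0.0261 without those libraries). On the lower side stood a second abundant gene, Phvul.002G229200, with 535, 185 and 517 FPKM in A18 and 139.8, 170.3 and 173 in nts. A18 replicate 2 lay just above the nts libraries and the other A18 libraries far above them (edgeR log2 change -1.24 ± 0.38, adjusted p = 0.174, and -1.54 with adjusted p = 0.0299 without A18 replicate 2). Of the 13 tested genes 9 had a log2 change above 0, and the genotypes were apart in 6, with 4 higher and 2 lower in nts, where 24.3% of all genes were apart. A18 replicate 2 was inside the nts range in 7 of the 13, A18 replicate 1 in 2 and A18 replicate 3 in 1, beside 41.6%, 36.5% and 37.1% of all genes. With both outlying libraries left out edgeR called 7 higher and 2 lower, where 9.67% of all genes were called higher and 10.3% lower.

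**Figure D3:**
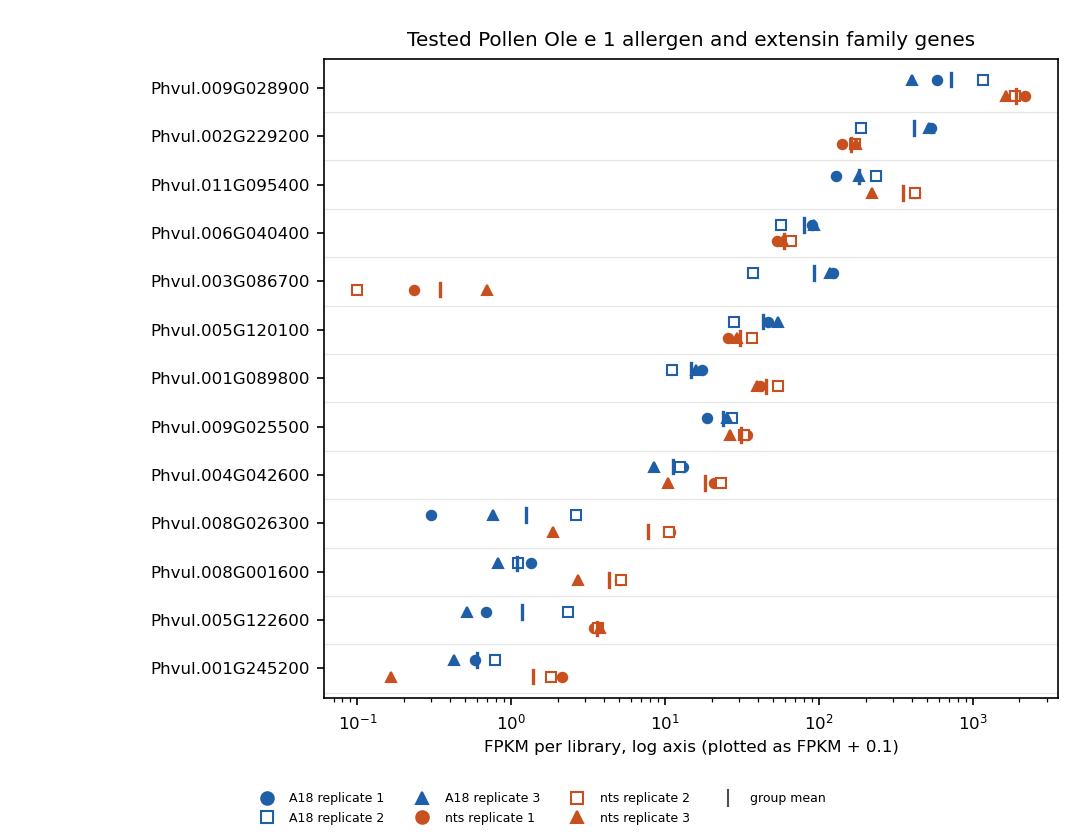
FPKM per library, plotted as FPKM + 0.1 on a log axis, of the 13 tested Pollen Ole e 1 allergen and extensin family genes in order of mean level, with A18 in blue, nts in orange and bars at the means. Phvul.003G086700 is the gene with all nts libraries far to the left of A18, and Phvul.009G028900 at the top lies higher in every nts library.

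The plain extensins were at low levels in these stems. The extensin 3 gene Phvul.004G098000, named after an extensin needed for cell plate formation in Arabidopsis embryos, had 0.994, 6.43 and 5.30 FPKM in A18 and 10.4, 11.2 and 3.56 in nts. The groups overlapped (edgeR log2 change 1.005 ± 0.77, adjusted p = 0.546, and 1.56 with adjusted p = 0.340 without A18 replicate 2). The other extensin 3 gene, Phvul.007G099700, had counts in A18 replicate 2 alone, at 0.110 FPKM, and was not tested.

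Proline-rich proteins of the wall are structural proteins, but the description proline-rich family protein need not mean a wall protein. Of the 8 genes 7 were tested and 6 had a log2 change above 0, with 0 of the 7 at an unadjusted p under 0.05 in edgeR and 0 called by DESeq2. The gene with the widest range was a proline-rich protein 2 gene, chosen after its values were seen. Phvul.011G026700 (chromosome 11, 2336331 to 2337804) had 1.23 and 2.84 FPKM in A18 replicates 1 and 3, 76.7 in A18 replicate 2, and 88.6, 72.1 and 137 in nts. A18 replicate 2 was thus inside the nts range and far from its own genotype, as for the arabinogalactan protein 14 gene Phvul.004G080600. The edgeR log2 change was 1.84 ± 1.46 (adjusted p = 0.560) over all libraries and 5.77 without A18 replicate 2 (edgeR adjusted p = 0.0219). The proline-rich spliceosome-associated gene Phvul.006G188200, an intracellular factor by its description, had 103 ± 10.4 FPKM in A18 and 101 ± 15.4 in nts (SD, n = 3). Phvul.005G018300 had 99.8 ± 41.2 and 94.8 ± 18.8 FPKM, and Phvul.011G078900 83.7 ± 25.5 and 111 ± 4.73 FPKM, in A18 and nts. For Phvul.011G078900 the edgeR log2 change was 0.46 (adjusted p = 0.456), and 0.76 without both outlying libraries (adjusted p = 0.0386). It was 0.85 without A18 replicate 2 alone (edgeR adjusted p = 0.0567).

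Hydroxyproline-rich glycoprotein family genes made up 47 of the tested genes, and 31 of them had a log2 change below 0. At the design text's thresholds 6 were lower and 0 higher, beside 3.37% and 2.06% of all genes, and in all 6 every nts library lay below every A18 library. Across the class that held for 10 genes, or 21.3%, beside 14.3% of all genes, and 3 genes, or 6.38%, were apart on the higher side, beside 10% of all genes. Phvul.009G145900 (chromosome 9, 21805535 to 21806093) had 19.6, 1.07 and 12.2 FPKM in A18, whereas each of the 3 nts libraries had 0 counts. A18 replicate 2 was far below the other A18 libraries. Against a floor of 3 counts per library the mean was at least 85.6-fold lower in nts (edgeR adjusted p = 0.1002, and 0.0299 without A18 replicate 2), a bound that covers counting error only and takes each count as 1 fragment. In an alternative chosen after seeing the data, the bound was 53.0-fold without A18 replicate 1 and 124-fold without A18 replicate 2.

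Phvul.009G220500 (chromosome 9, 33307521 to 33311156) had 12.1, 14.4 and 17.5 FPKM in A18 and 1.49, 2.26 and 3.53 in nts. The lowest A18 library was more than 3 times the highest nts library (edgeR log2 change -2.51 ± 0.38, adjusted p = 0.0622, and -2.43 with adjusted p = 0.0459 without A18 replicate 2). Phvul.008G184900 (chromosome 8, 52082295 to 52083095) had 101, 34.7 and 93.4 FPKM in A18 and 11.5, 14.3 and 15.4 in nts. Here A18 replicate 2 was low but still above nts, and the mean was 5.55-fold lower in nts (edgeR log2 change -2.36 ± 0.39, adjusted p = 0.0663, and -2.65 with adjusted p = 0.0172 without that library). Phvul.002G142600 had the highest level of the 6, with 112, 121 and 269 FPKM in A18 and 13.4, 28.5 and 44.7 in nts. A18 replicate 3 was its highest library (edgeR log2 change -2.44 ± 0.55, adjusted p = 0.103, and -3.10 with adjusted p = 0.0280 without A18 replicate 2 and nts replicate 3). With only A18 replicate 2 left out its edgeR adjusted p was 0.0847. For Phvul.003G286300 the values were 26.6, 30.1 and 26.4 FPKM in A18 and 2.89, 8.24 and 8.05 in nts (edgeR log2 change -2.05 ± 0.45, adjusted p = 0.1002, and -2.16 with adjusted p = 0.04999 without both outlying libraries). Without A18 replicate 2 alone its edgeR adjusted p was 0.103. A18 replicate 2 was level with the other A18 libraries in this gene. Phvul.011G098100 had A18 replicate 2 far above the rest, with 3.34, 15.7 and 2.19 FPKM in A18 and 0.777, 0.591 and 0.789 in nts. Its log2 change was -3.25 with that library and -1.73 without it (edgeR adjusted p = 0.146 and 0.143). The part of the lower xylem and fibre markers in these 6 differences was not tested.

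The most abundant genes of the class did not separate the genotypes. Phvul.001G100400 had 386, 241 and 284 FPKM in A18 and 225, 247 and 224 in nts (edgeR log2 change -0.30 ± 0.22, adjusted p = 0.536). The neighbours Phvul.002G093100 and Phvul.002G093200 lie on chromosome 2 between 17168672 and 17192933. The first had 71.7, 341 and 67.2 FPKM in A18 and 123.02, 102 and 263 in nts, with A18 replicate 2 and nts replicate 3 the highest of their genotypes. The second had 186, 204 and 169 FPKM in A18 and 73.1, 59.5 and 225 in nts, with nts replicate 3 alone above A18. Without those libraries the edgeR log2 changes were 0.80 and -1.31 (adjusted p = 0.0404 and 0.0149), opposite in sign. Without A18 replicate 2 alone they were 1.41 and -0.39 (edgeR adjusted p = 0.154 and 0.741). The genes of the class past the thresholds were short: 5 of the 6 spanned under 1000 bp, against 6 of the 41 others, with median spans of 596 and 3073 bp.

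**Figure D4:**
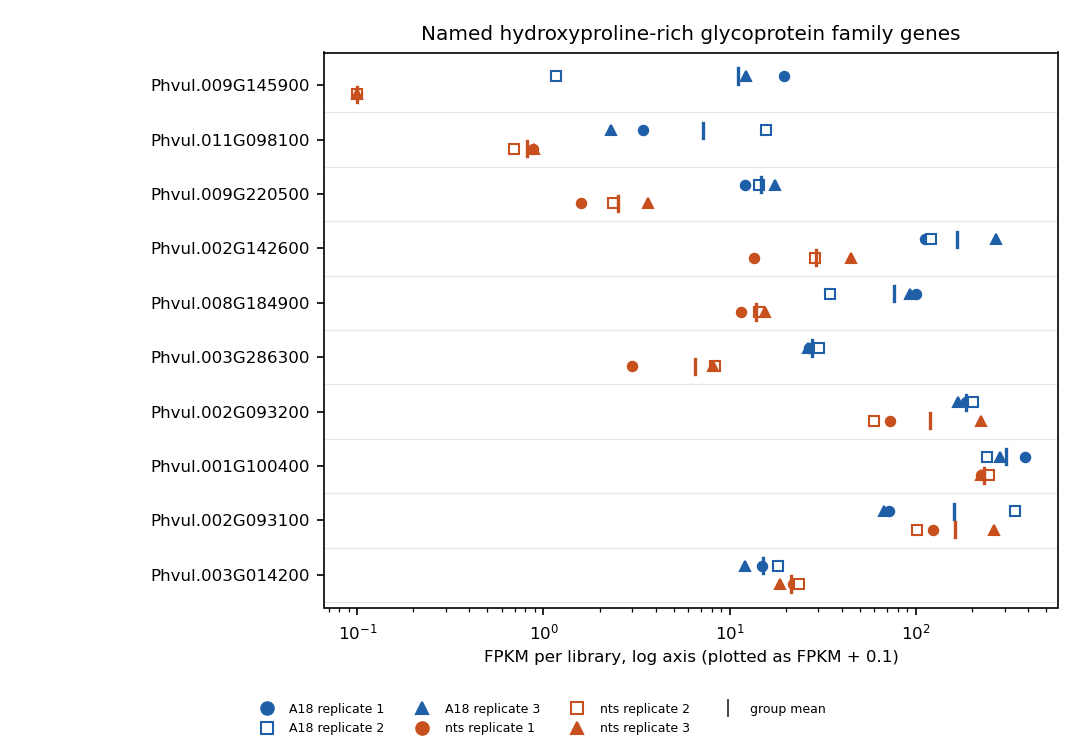
FPKM per library, plotted as FPKM + 0.1 on a log axis, of the 10 tested hydroxyproline-rich glycoprotein family genes named by the rule, in order of log2 change, with A18 in blue, nts in orange and bars at the means. The first 6 genes are lower in every nts library, and the 3 most abundant genes overlap between genotypes.

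Summed levels rest mostly on the abundant genes. The 25 Ole e 1 family genes together had 1558, 1753 and 1412 FPKM in A18 and 2927, 2701 and 2199 in nts. The 61 hydroxyproline-rich glycoproteins had 1780.0, 1725 and 1680 FPKM in A18 and 1265, 1248 and 1522 in nts. In both sums the genotypes were apart, higher in nts in the former and lower in the latter, whereas the arabinogalactan protein sums overlapped through A18 replicate 2. The Ole e 1 family sum turned on 1 gene: without Phvul.009G028900, an alternative chosen after seeing the data, it was 973, 598 and 1013 FPKM in A18 and 755, 820.4 and 564 in nts, overlapping and with a lower mean in nts. Leaving out the most abundant gene of the other classes in the same way gave 1394, 1484.5 and 1396 FPKM in A18 and 1040, 1001 and 1297 in nts for the hydroxyproline-rich glycoproteins, still apart. For the arabinogalactan proteins it gave 1712, 4597 and 1319 FPKM in A18 and 6421.5, 4672 and 6790.4 in nts, with A18 replicate 2 just under the lowest nts library. The mean sum over all 114 genes was 7003 ± 2553 FPKM in A18 and 12474 ± 1840 FPKM in nts (SD, n = 3).

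**Figure D5:**
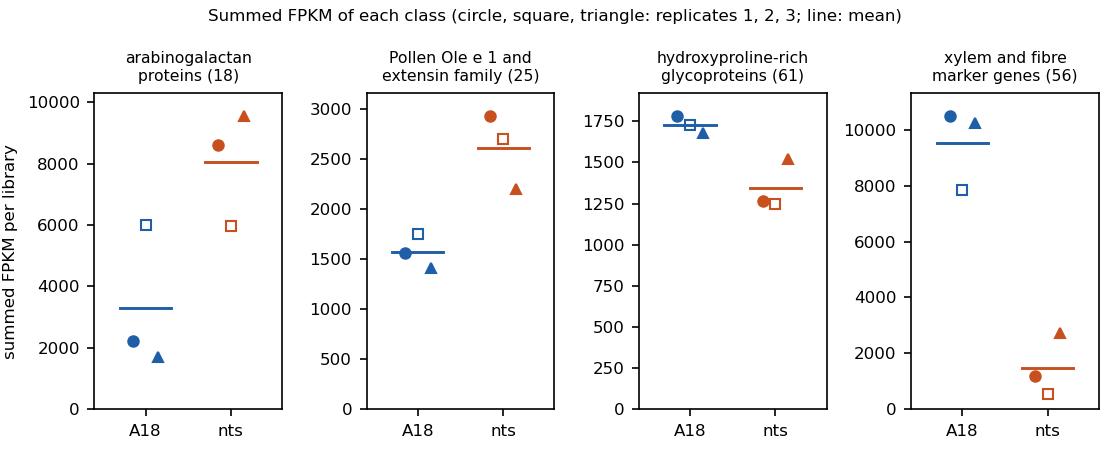
Summed FPKM per library of the arabinogalactan proteins, the Ole e 1 family, the hydroxyproline-rich glycoproteins and the 56 xylem and fibre markers, with 1 symbol per replicate, a line at each mean and linear axes from 0. The means of the first 2 panels are higher and the others lower in nts, the second through Phvul.009G028900 alone, and A18 replicate 2 (open square) reaches the nts libraries in the first panel.

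Markers of other tissues were measured beside these classes, and their part in the results was not tested. Of 6 pollen and anther genes the summed level was 48.4 to 60.7 FPKM in A18 and 60.98 to 90.8 in nts, and the 15 phloem genes had 602 to 893 FPKM in A18 and 765 to 887 in nts. For the 9 epidermis genes the sum was 94.9 to 237 FPKM in A18 and 120.2 to 721 in nts, where 3 of the 9 had 0 counts everywhere and 4 of the 5 tested were higher in nts at the design text's thresholds. The 22 shoot meristem genes had 396 to 507 FPKM in A18 and 274 to 509 in nts, and the 80 green tissue genes 16701 to 30936 in A18 and 29288 to 32147 in nts. Each of these ranges except that of pollen and anther overlapped between genotypes. Of the 72 tested green tissue genes 55 had a log2 change above 0 and 17 below 0, where 50.2% of all genes were above 0. The arabinogalactan protein 6 gene, Phvul.004G059300, a pollen form in Arabidopsis, had 0 counts in all libraries.

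Enzymes of the kinds that hydroxylate and glycosylate these proteins were listed by description, 102 in all, of which 96 were tested. The list is broad, since 39 are O-fucosyltransferase family proteins and others act on other substrates. In edgeR 0 of the 96 passed an adjusted p of 0.05, 9 were higher and 10 lower at an unadjusted p under 0.05 (8.39% and 9.58% of all genes), and DESeq2 called 14 of 96, beside 11.3% of all genes. The median log2 change was -0.05. At the design text's thresholds 2 were higher and 3 lower, beside 2.06% and 3.37% of all genes. The 2 higher were the fucosyltransferase 1 genes Phvul.010G161900 and Phvul.010G162000. Their means were low, 0.161 and 0.102 FPKM in A18 and 1.82 and 0.851 in nts. P4H isoform 1 (Phvul.007G002000), a prolyl 4-hydroxylase, had 22.3, 24.7 and 22.4 FPKM in A18 and 19.2, 27.9 and 27.9 in nts. Phvul.002G122000 and Phvul.003G278500, described by the name of XEG113, an arabinosyltransferase of extensins in Arabidopsis, had log2 changes of 0.39 and -0.09 (edgeR adjusted p = 0.458 and 0.859). In each of these genes the FPKM values of the genotypes overlapped. A galactosyltransferase family protein, Phvul.008G159800, had 34.5, 38.2 and 33.99 FPKM in A18 and 0.613, 0.521 and 9.21 in nts. A Core-2/I-branching family protein, Phvul.004G049700, of a family with glucuronosyltransferases of arabinogalactans in Arabidopsis, had 29.7, 39.98 and 35.6 FPKM in A18 and 0, 0.290 and 4.51 in nts. In both, chosen after their values were seen, every nts library lay far below A18 and nts replicate 3 was the highest of nts (edgeR log2 change -3.27 ± 1.16 and -4.37 ± 1.64, adjusted p = 0.216 and 0.235). The third lower gene, the O-fucosyltransferase family gene Phvul.009G032800, had 27.7, 3.09 and 25.0 FPKM in A18 and 1.34, 1.12 and 0.695 in nts. Its edgeR log2 change was -4.00 ± 0.79, with adjusted p = 0.0840, the lowest of the list.

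The 31 members that were not tested were nearly silent. In 24 the count was 0 in all 6 libraries, and the other 7 reached at most 0.699 FPKM and 15 counts in any library. Of the Ole e 1 family 12 of 25 were among them, of the hydroxyproline-rich glycoproteins 14 of 61 and of the arabinogalactan proteins 3 of 18. Silent genes lay side by side in places. On chromosome 1 the hydroxyproline-rich genes Phvul.001G044200, Phvul.001G044300 and Phvul.001G044400, from 3835436 to 3864531, all had 0 counts. On chromosome 4 Phvul.004G042700 and Phvul.004G042800 had 0 counts next to Phvul.004G042600 of the same Ole e 1 family, which had 12.9, 12.3 and 8.30 FPKM in A18 and 20.7, 22.9 and 10.2 in nts (edgeR log2 change 0.75, adjusted p = 0.338, and 1.15 with adjusted p = 0.0427 without A18 replicate 2 and nts replicate 3). On chromosome 3 the Ole e 1 family genes Phvul.003G013800 and Phvul.003G013900 had 0 counts beside the hydroxyproline-rich gene Phvul.003G014200, which had 14.95 ± 3.05 FPKM in A18 and 21.3 ± 2.47 in nts (SD, n = 3; edgeR log2 change 0.57, adjusted p = 0.282, and 0.86 with adjusted p = 0.0311 without the same libraries). Without A18 replicate 2 alone the edgeR adjusted p was 0.246 for Phvul.004G042600 and 0.0743 for Phvul.003G014200. No member overlapped another gene of the table, and how reads were divided among similar copies is not given in the sources used here.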

How the data were processed

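Cutadapt 1.9 and FastQC are the tools that the submitters' processing notes list. What aligned and counted the reads, with which strand setting, genome build and annotation, is not given in the sources used here, and coordinates are printed as the table gives them. The deposited counts are whole numbers per gene, per the file headers. Between 29.8% and 33.0% of low counts in each library were divisible by 4, with no reference share computed. Whether a count is 1 fragment is not given in the sources used here. FPKM columns of the authors stand beside the counts, per the file headers, and values of genes with 0 counts were set to 0.

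Counts were tested with edgeR 4.0.16 (quasi-likelihood F test, robust, TMM, filterByExpr) (R 4.3.3), with no term besides genotype. Benjamini-Hochberg adjustment ran over all 21126 genes tested. Standard errors are the log2 change divided by the square root of F. Alternatives used DESeq2 1.42.0, limma 3.58.1, other scaling and filtering, and fewer libraries. The procedure was tested on simulated data. Its libraries were drawn around the same levels within a genotype, with none outlying, so the recovery need not hold for the real libraries. With 50 genes changed at each size, edgeR recovered 1 at 2-fold, 16 at 4-fold, 32 at 8-fold and 40 at 16-fold. Of 20926 unchanged genes 7 were called. A member that was not called may therefore still differ. No pair of libraries within a genotype was a repeat deposit (chi-square per gene 136 to 447). The floor of 3 counts covers counting error only.

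The members and lists were chosen with earlier results of these data known. Genes named were members with the largest changes past the design text's thresholds (up to 8 in each direction with a mean of at least 5 FPKM in the higher genotype, which gave 8 lower and 2 higher), the 6 most abundant, the 3 most abundant of each class, and runs of at least 3 members within 100 kb. Other genes named were chosen after their values were seen.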

Additional observations from a re-analysis of the deposited data

How the results depend on the processing

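The count of all genes called, 20 with edgeR, was 37 with no filter on low counts, 2395 with DESeq2, 5087 with voom and quality weights, 0 with the replicate block, 4267 without A18 replicate 2 and nts replicate 3, and from 0 to 964 when single libraries were left out. The count of members called, 0 of 83, was 20 with DESeq2, 40 with voom, 37 without both libraries, and from 0 to 20 with single libraries left out (20 without A18 replicate 2, 7 without nts replicate 3, 0 without any other). Members past the design text's thresholds, 11 in the test as reported, were 20 with voom, 22 without both libraries and from 8 to 20 without single libraries. The related enzymes called, 0 as reported, were 14 with DESeq2, 25 with voom, 19 without both and from 0 to 5 without single libraries. Members lower at those thresholds numbered 6 to 9 in every setting run, and arabinogalactan proteins above 0 numbered 13 or 14.

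Of the 27 tested genes named by the rule, 3 changed sign in some setting, all near 0 as reported; Phvul.004G162500, named outside it, turned from -0.54 to 2.14 without A18 replicate 2. With single libraries left out, Phvul.002G093100 ranged from -0.52 to 1.41 and gave -0.34 when A18 replicate 1 was left out, -0.35 for A18 replicate 3 and -0.52 for nts replicate 3. Phvul.005G018300 ranged from -0.16 to 0.33, with -0.16 when A18 replicate 2 was left out, -0.0077 for A18 replicate 3 and -0.11 for nts replicate 3, and it had -0.20 with voom and -0.35 without both libraries. Phvul.006G188200 ranged from -0.11 to 0.23, with -0.047 when A18 replicate 1 was left out, -0.020 for A18 replicate 3 and -0.11 for nts replicate 3. The cause of these shifts was not tested. Same-numbered samples did not deviate together (correlations of deviations -0.016, -0.13 and 0.039 for numbers 1, 2 and 3), so the replicate block, which called 0 members, pairs samples by a number alone.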
